A study of Mus musculus with 32 samples.

Results

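Liver was compared with mammary gland in lactating mice on the same low-fat diet. The comparison used the 6 arrays whose titles give liver or mammary gland on 8% dietary fat, 3 per tissue, out of 32 arrays in the series. The other 26 arrays are all mammary gland. The mice were wildtype dams of FVB, an inbred laboratory strain, and the labels give no age, transgene or drug. Per the series' design text they ate chow up to lactation day 5 and then a diet with 8% of its energy from soy oil for 5 days. Both tissues were taken on lactation day 10, when milk output is high. RNA came from whole pieces of tissue, processed as individual samples. The array descriptions of the mammary samples titled 8% read 40% fat, so the groups follow the titles. The design text speaks of 3 dams per diet, so the liver and mammary samples can come from the same dams, but no label matches them.

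Liver and lactating mammary gland are both secretory, lipid-making organs. Hepatocytes release albumin, clotting factors and lipoproteins into blood, make glucose and bile acids, and turn amino nitrogen into urea. Alveolar cells of the lactating gland release caseins, whey proteins, lactose and fat globules into milk, and take up glucose, amino acids and fatty acids from blood to do so. Fatty acids are made from glucose in both, through citrate carried out of mitochondria, ATP citrate lyase and fatty acid synthase. Cholesterol synthesis starts from the same cytosolic acetyl-CoA and runs through HMG-CoA.

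The values are probe-set intensities, used on the log2 scale, where a difference of 1 is 2-fold. Differences are liver minus mammary gland throughout. A probe set was tested if the higher of the 2 group means reached 4.22, the median of all values in the table (18.6 on the linear scale), called here the filter line. A group mean under this line was taken as not standing above background. Where that holds for one tissue, a fold was computed with that tissue at the line and is written as "at least". Such a probe set was tested only through the other tissue, so its direction was fixed by the filter. Its p-value and any lack of overlap add no support for that direction. Calls come from limma's moderated linear model, which sets a difference against the spread between the 3 arrays of a tissue, and needed a p under 0.05 after Benjamini-Hochberg adjustment. Where several probe sets measured a gene, the one brightest on average across the 32 arrays stands for it.

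Most of what the array could measure differed between the tissues. Of 6897 probe sets tested, 5518 (80.0%) were called, 2739 (39.7%) higher and 2779 (40.3%) lower in liver. A call with at least a 2-fold difference was made for 1631 probe sets (23.6%) higher and 1085 (15.7%) lower in liver, 39.4% together. The 3 liver arrays did not overlap the 3 mammary arrays for 5731 probe sets (83.1%). Counted by gene, 5289 were tested, 2155 (40.7%) were called higher and 2044 (38.6%) lower, 79.4% in all, and the median difference was 0.04. A call alone therefore says little about a gene here, and the gene groups below are read by the size of their differences beside that median.

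The balance of the small differences depends on the scaling between tissues. Quantile normalization put the median of all genes at -0.22 and equal array medians put it at 0.23. Equal medians of the ribosomal protein genes put it at 1.10, with 5664 probe sets higher and only 697 lower in liver. All 1631 probe sets at least 2-fold higher kept their direction under all 3 scalings, as did 1040 of the 1085 at least 2-fold lower. Equal array medians and equal ribosomal medians each raise every difference by 1 common amount. Probe sets higher in liver could therefore not turn under these, and only quantile normalization could turn them. A probe set not tested under a scaling was counted as keeping its direction. Median intensity ran from 16.1 to 16.7 on the liver arrays and from 18.2 to 18.5 on the mammary arrays. Correlations over the 6897 tested probe sets were 0.990 to 0.992 between liver arrays, 0.986 to 0.988 between mammary arrays and 0.445 to 0.467 across tissues. Only 3 arrays per tissue limit the precision of every value.

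**Figure D1:**
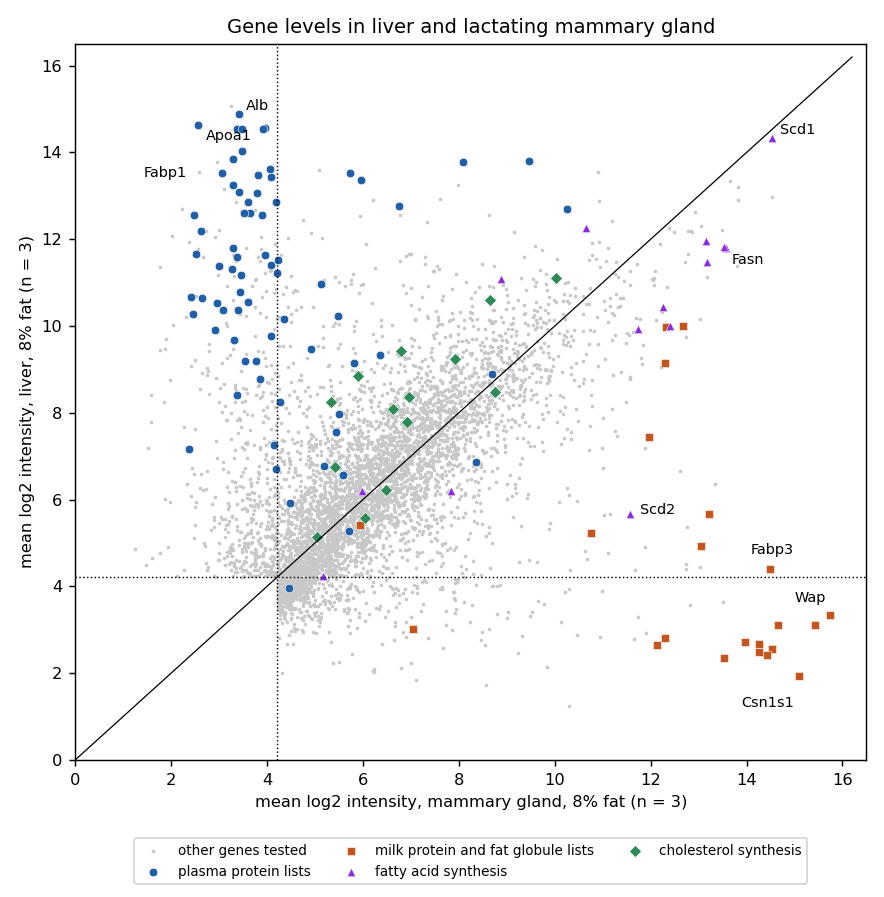
Mean log2 intensity of each gene tested in mammary gland (horizontal) and liver (vertical), 3 arrays each, with equality as the solid line and the filter line of 4.22 dotted. Most genes of the plasma protein lists sit at the upper left and most of the milk lists at the lower right, while Fasn and Scd1 are bright in both tissues and lie nearer the line of equality.

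Summed markers of the labelled cells matched the titles. Summed over 14 hepatocyte markers, intensity was 144400 to 157500 on the liver arrays and 560.8 to 1337 on the mammary arrays. Of those 14 markers, 12 lay under the filter line in mammary gland, Alb, Ttr, Apoa1 and the fibrinogen chains Fgb and Fgg among them. The 12 markers of secretory luminal cells of the gland summed to 142300 to 147200 on the mammary arrays and 1615 to 1760 on the liver arrays. Of these, Krt8, Krt18 and Cldn3, keratins and a tight junction protein that liver epithelium also makes, were above the line in liver. These 3 were called higher in liver, Cldn3 at 1.55 and Krt18 at 0.63, though a second probe set of Krt18 gave -0.86. The other 8 of the 11 tested were called lower. The brightest members, milk protein genes such as Wap and Csn1s1, weigh most in the linear sum. The groups did not come near each other on either sum.

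Each tissue also carried its own minor cell types. In liver, Kupffer cell and macrophage markers summed to 2697 to 2906 against 914 to 1077 in mammary gland. Clec4f, a lectin that marks Kupffer cells, stood at 8.41, 8.55 and 8.78 in liver and at 3.50, 3.54 and 3.45 in mammary gland, at least 20.6-fold higher (adjusted p = 6.07e-09). Cd5l, a macrophage secreted protein, was at least 15.3-fold higher. In mammary gland, myoepithelial markers summed to 2488 to 2791 against 250 to 313.3 in liver, and adipocyte markers to 3653 to 4825 against 606.6 to 634.4. Cholangiocyte markers lay under the line in liver for all 4 measured. In these bulk samples more cells of a type and more RNA per cell cannot be told apart, which holds for every difference below.

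Antibody transcripts were high in mammary gland and uneven between its arrays. Igha, the heavy chain of the IgA secreted into milk, stood at 4.71, 4.48 and 4.35 in liver and at 12.36, 13.40 and 12.42 in mammary gland. Its difference was -8.21 ± 0.27 (SE, adjusted p = 6.07e-08), or 297-fold. Ighm was at least 173-fold and Jchain, which joins the chains of secreted IgA and IgM, at least 24.9-fold lower in liver. Lymphocyte and plasma cell markers summed to 167.4 to 182.8 in liver and to 8207, 8350 and 17720 in mammary gland. Mammary replicate 2 was the highest for Igha, Ighm and Jchain.

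The genes of proteins secreted into blood were higher in liver throughout. All 22 tested genes for plasma carrier and acute-phase proteins were called higher in liver, beside 40.7% over all genes. Each was at least 2-fold higher, and the median difference was 8.02 beside 0.04 over all genes. With means under the filter line set to it, the list median was 7.59. Alb, the main carrier protein of plasma, stood at 14.96, 15.07 and 14.62 in liver and at 3.48, 3.39 and 3.39 in mammary gland. Its difference was 11.46 ± 0.13 (SE, adjusted p = 1.43e-10), at least 1621-fold. No mammary array came near a liver array, and the mammary values lay under the filter line.

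Other plasma proteins followed. Serpina1c, an alpha-1 antitrypsin that inhibits elastase, stood at 14.33, 14.39 and 14.95 in liver against 3.28, 3.42 and 3.40 in mammary gland, at least 1292-fold higher. Ahsg, the fetuin that keeps calcium phosphate in solution, was at least 1306-fold higher and Pzp, a broad protease trap of the alpha-2 macroglobulin family, at least 906-fold. Hp, the haemoglobin scavenger haptoglobin, was above the line in both tissues and 222-fold higher in liver. The smallest differences on the list were those of Cp, the copper carrier ceruloplasmin, at 2.45, and Orm2, an acid glycoprotein, at 2.52, at least 5.64-fold. The probe sets of Serpina1b and Serpina1e, also among the largest differences, belong to a family of near-identical copies, so their signals may not be separate.

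Genes of clotting and complement were as one-sided. Of 21 tested coagulation and fibrinolysis genes 20 were called higher in liver, beside 40.7% over all genes, with a median difference of 7.83. F2, prothrombin, stood at 13.62, 13.74 and 13.46 in liver and 4.01, 3.99 and 4.17 in mammary gland, at least 671-fold higher. Plg, the precursor of plasmin, was at least 1274-fold and Kng1, the kininogen that yields bradykinin, at least 796-fold higher. The exception was Serpinf2, the plasmin inhibitor, at -0.43, whose probe sets disagreed: a second one gave 8.59. The call of the first was lost without mammary replicate 1 (-0.38). Of 12 complement genes 11 were called higher, with a median of 4.90, led by Cfi, a protease that cleaves activated complement, at least 635-fold. Cfb was the exception at -0.48, with the liver mean under the line, and it turned to 0.56 with ribosomal medians equal.

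Of 17 tested genes of apolipoproteins and lipoprotein handling 15 were called higher in liver, beside 40.7% over all genes. Their median was 7.02. Apoa1, the main protein of high-density lipoprotein, stood at 14.56, 14.71 and 14.60 in liver and at 2.60, 2.55 and 2.55 in mammary gland, at least 1360-fold higher (adjusted p = 5.5e-11). Apob, the frame of very-low-density lipoprotein, was at least 172-fold higher. Apoe, which many cell types make, differed by 4.32, at 9.54, 9.54 and 9.35 in mammary gland. Scarb1, the high-density lipoprotein receptor, was not called (0.20, 95% interval from -0.03 to 0.44). Lcat, which esterifies cholesterol in plasma, had probe sets of opposite direction, -1.49 and 9.07.

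Promoters are printed for 2 genes of each tissue, chosen among those with large differences because they carry a searched motif, so that the sequence next to their start sites can be read beside the values. The 250 bases before the annotated start come from RefSeq (GRCm38.p6) and are given 5′ to 3′ on the gene's strand. Capitals in the liver genes mark GTTAAT, a core of the sites of the hepatocyte factor HNF1, in Alb, and TTGCNNAA, a core of the sites of C/EBP factors, in Fabp1. Alb lies on the plus strand at chr5:90460620-90460869, with its match 32 to 27 bases before the start. Fabp1, the fatty acid binding protein of liver, lies on the plus strand at chr6:71199629-71199878, with its match 174 to 167 bases before the start.
Alb: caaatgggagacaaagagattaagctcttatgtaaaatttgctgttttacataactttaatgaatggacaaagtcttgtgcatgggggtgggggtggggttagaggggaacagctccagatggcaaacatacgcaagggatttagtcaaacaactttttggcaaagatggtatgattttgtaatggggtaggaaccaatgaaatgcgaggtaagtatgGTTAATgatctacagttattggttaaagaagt
Fabp1: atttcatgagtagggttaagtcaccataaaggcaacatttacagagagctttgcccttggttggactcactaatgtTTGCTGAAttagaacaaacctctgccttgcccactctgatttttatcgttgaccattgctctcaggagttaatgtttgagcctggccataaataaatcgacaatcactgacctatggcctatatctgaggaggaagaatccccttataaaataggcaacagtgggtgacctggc

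The mammary genes shown are Csn2 and Csn1s1, which encode the beta and alpha-S1 caseins. Capitals mark TTCNNNGAA, the core of the sites of STAT5, the factor through which prolactin acts. Csn2 lies on the minus strand at chr5:87699426-87699675, with its match 93 to 85 bases before the start. Csn1s1 lies on the plus strand at chr5:87665958-87666207, with its match 100 to 92 bases before the start.
Csn2: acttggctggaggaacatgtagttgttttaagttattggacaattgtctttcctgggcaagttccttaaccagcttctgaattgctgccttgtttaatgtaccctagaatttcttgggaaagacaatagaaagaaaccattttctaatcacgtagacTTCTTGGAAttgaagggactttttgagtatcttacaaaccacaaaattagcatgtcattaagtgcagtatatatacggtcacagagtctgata
Csn1s1: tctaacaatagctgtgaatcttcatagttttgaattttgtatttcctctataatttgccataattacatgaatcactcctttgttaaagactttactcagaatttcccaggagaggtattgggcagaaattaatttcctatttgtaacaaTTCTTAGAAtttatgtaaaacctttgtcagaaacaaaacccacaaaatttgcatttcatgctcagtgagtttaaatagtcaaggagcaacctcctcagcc

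The 3 motifs were searched on both strands of these 250-base windows, and they do not overlap in the stretches marked. Among the 12 genes with the largest difference in each direction, 10 higher and 8 lower in liver had a promoter in the RefSeq table. GTTAAT was present in 6 of the 10 (Alb, Fabp1, Pzp, Serpina1b, Serpina1c and Serpina1e) and in 1 of the 8, Csn1s2a. TTGCNNAA was present in 5 of the 10, Serpina1b and Serpina1e among them, and 0 of the 8. The Serpina1 genes belong to the family of near-identical copies described above, so their matches may not be separate observations. TTCNNNGAA was present in 0 of the 10 and in 3 of the 8, Csn1s1, Csn2 and Glycam1. Over all 32851 promoters of the table the shares were 6.43%, 9.56% and 7.02%.

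In the wider gene sets GTTAAT was in 7.43% of the 1346 promoters of genes at least 2-fold higher in liver and 3.73% of the 857 of genes at least 2-fold lower, beside 4.82% over genes tested. TTGCNNAA was in 10.8% and 9.45%, and TTCNNNGAA in 5.65% and 6.18%. The share of G and C was 45.9% in the 10 and 44.6% in the 8 promoters but 59.5% over genes tested, and base composition alone changes how often such letters occur. A match describes the letters and was not tested as a site.

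Fabp1 itself stood at 13.56, 13.54 and 13.53 in liver and at 2.60, 2.57 and 2.56 in mammary gland. Its difference was 10.97 ± 0.08 (SE, adjusted p = 5.5e-11), at least 642-fold. The mammary values lay under the filter line, so the filter fixed this direction. The tissues did not overlap, as for 83.1% of all probe sets tested.

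Iron and copper genes included the hormone that liver sends to other tissues. Hamp, hepcidin, stood at 12.74, 12.69 and 12.65 in liver and at 2.25, 2.23 and 2.22 in mammary gland, at least 356-fold higher. Of 14 tested genes of iron, heme and copper 10 were called higher and 3 lower in liver, with a median of 2.02. The shares over all genes were 40.7% and 38.6%. Tfr2, the receptor by which hepatocytes sense iron, was at least 12.0-fold higher and Mt2, a metallothionein that binds zinc and copper, 25.5-fold. Fth1, ferritin heavy chain, was lower in liver at -0.74 and Slc11a2, an iron importer, at -0.91, and both turned positive with ribosomal medians equal.

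Detoxification genes were higher in liver with few exceptions. Of 17 tested cytochrome P450 genes 15 were called higher and 1 lower, with a median of 4.82. The shares over all genes were 40.7% and 38.6%. Cyp3a11, a broad drug-oxidising enzyme, stood at 12.37, 12.14 and 12.07 in liver and 2.78, 2.70 and 2.69 in mammary gland, at least 251-fold higher. The lower member was Cyp2d9, at -0.74, and it turned to 0.29 with ribosomal medians equal. Of 28 genes for conjugation and aldehyde removal 26 were called higher, with a median of 3.66, among them Adh1, alcohol dehydrogenase, at least 230-fold. The lower ones were the glutathione transferases Gstm5 and Gstm3. They turned to 0.04 and 0.36 with ribosomal medians equal, and a second probe set of Gstm3 gave 3.83. The call of Gstm3 was lost without any single liver array (-0.70 to -0.65). Many P450 and transferase genes have near-identical copies that the probes may not separate.

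Cyp2e1, which oxidises ethanol, was high in both tissues. It stood at 11.98, 11.68 and 11.85 in liver and at 10.17, 10.07 and 8.54 in mammary gland, 4.73-fold higher in liver (adjusted p = 0.00116). Some adipocyte transcripts were uneven across the mammary arrays as well. Adipoq, adiponectin, stood at 10.00, 9.67 and 8.28 and Retn, resistin, at 8.76, 8.74 and 7.55, so mammary replicate 3 was the lowest for all 3 genes. It was the lowest for 8 of the 10 adipocyte markers tested, though Fabp4 (5.54, 5.53 and 5.48) and Pparg (5.07, 5.06 and 4.97) hardly differed between arrays. Cdo1, cysteine dioxygenase, followed the same order of arrays with 8.40, 8.11 and 6.30, and 12.91, 12.92 and 12.95 in liver. The part of adipocytes in these values was not tested.

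All 11 tested genes of bile acid synthesis and transport were called higher in liver, beside 40.7% over all genes. Their median was 3.61. Nr0b2 was under the filter line in both tissues and not tested. Cyp7a1, the rate-limiting enzyme of bile acid synthesis, stood at 6.86, 6.48 and 6.78 in liver and at 3.12, 3.12 and 3.04 in mammary gland, at least 5.61-fold higher. Slc10a1, which takes bile acids up from blood, was 163-fold higher by its main probe set. Abcb4, which moves phospholipid into bile, was at least 18.6-fold higher.

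All 7 tested genes of the urea cycle and nitrogen handling were called higher, beside 40.7% over all genes. Their median was 5.46. Ass1, of the same cycle, was under the filter line in both tissues (2.93 in liver, 2.21 in mammary gland) and not tested. Cps1, which traps ammonia in the first step of the cycle, stood at 11.83, 11.94 and 12.03 in liver and at 2.40, 2.36 and 2.39 in mammary gland, at least 210-fold higher. Otc, the next enzyme, was at least 57.5-fold and Asl, which releases arginine, 44.1-fold higher. Of 20 amino acid breakdown genes 18 were called higher and 1 lower, with a median of 4.30. Tat, which opens tyrosine breakdown, stood at 12.72, 12.61 and 12.68 in liver and 3.64, 3.60 and 4.05 in mammary gland, at least 350-fold higher. Gldc, of the glycine cleavage system, was the lower one at -1.12 ± 0.16 (SE). Its call was lost with ribosomal medians equal (-0.08) and against mammary gland on 40% fat (-0.44). Ivd, of leucine breakdown, was not called (0.06).

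Arginase, which ends the urea cycle, was divided between the tissues by isoform. Arg1, the cytosolic liver form, stood at 10.68, 11.39 and 11.79 in liver and at 4.06, 3.97 and 4.20 in mammary gland, at least 134-fold higher. Arg2, the mitochondrial form, stood at 2.25, 2.18 and 2.01 in liver and at 9.66, 10.01 and 9.86 in mammary gland, at least 49.3-fold lower in liver (adjusted p = 7.58e-10). Each form was under the filter line in the other tissue.

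Glucose release genes were mostly higher in liver. Of 10 tested genes of gluconeogenesis and glycogen 8 were called higher and 2 lower, beside 40.7% and 38.6% over all genes. Their median was 3.27. Fbp1, which removes a phosphate from fructose bisphosphate, stood at 11.75, 11.81 and 11.88 in liver and 3.29, 4.07 and 3.35 in mammary gland, at least 194-fold higher. Pck1, the cytosolic enzyme that commits oxaloacetate to glucose, was 55.6-fold higher, at 7.12, 6.43 and 6.77 in mammary gland. Slc37a4, which brings glucose phosphate to its phosphatase, was 39.6-fold higher. Pcx, pyruvate carboxylase, went the other way, at 8.50, 8.57 and 8.15 in liver and 9.60, 9.65 and 9.40 in mammary gland (-1.14 ± 0.14 SE, adjusted p = 0.000124). With ribosomal medians equal it was at -0.11 and not called. Pck2, the mitochondrial carboxykinase, was at -0.71 and turned to 0.33 with ribosomal medians equal.

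Fat burning followed liver. All 16 tested genes of mitochondrial beta oxidation were called higher in liver, with a median of 2.76. So were 12 of 14 peroxisomal genes, with a median of 1.63. Over all genes 40.7% were called higher. Slc22a5 and Acadvl, of the mitochondrial list, were under the filter line in both tissues and not tested. Cpt1a, which admits fatty acids to mitochondria, stood at 8.60, 8.68 and 8.76 in liver and 4.03, 4.09 and 4.01 in mammary gland, at least 22.1-fold higher. Acaa2, the last thiolase of the cycle, was 26.2-fold higher. Uox, the peroxisomal urate oxidase, was at least 492-fold higher and Phyh, which removes branched chains, 97.0-fold. Oxct1, which lets cells burn ketone bodies, was the only measured gene of that pathway. It stood at 3.20, 3.49 and 3.24 in liver and at 9.38, 9.49 and 9.61 in mammary gland, at least 38.7-fold lower in liver.

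Of 19 measured liver transcription factors and nuclear receptors, all 14 tested were called higher in liver, beside 40.7% of all genes tested. Their median was 3.10, or 2.15 with means under the filter line set to it. Foxa1, Onecut1, Nr0b2 and Prox1 stayed under the filter line and were not tested, nor was Esr1 (3.53 in liver, 3.97 in mammary gland). Some tested members, such as Hnf4a and Ppara, were under it in mammary gland, so the filter fixed their direction. Hnf4a, the nuclear receptor central to hepatocyte identity, stood at 7.55, 7.41 and 7.68 in liver and 3.39, 3.39 and 3.42 in mammary gland, at least 10.0-fold higher. Ppara, the fatty acid sensor that drives oxidation genes, stood at 7.76, 7.65 and 7.47 against 2.19, 2.16 and 3.14, at least 10.6-fold higher. Nr1h3, an oxysterol receptor, was 16.7-fold higher. Cebpb, active in both organs, stood at 9.78, 9.62 and 9.69 in liver and 8.82, 8.79 and 7.45 in mammary gland, a difference of 1.35. It was 0.90 without mammary replicate 3, and the call was lost under quantile normalization (0.75).

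Of 16 tested genes of the growth hormone and IGF axis 8 were called higher and 7 lower, with a median of -0.03, beside 40.7% higher and 38.6% lower over all genes with a median of 0.04. Ghr, the growth hormone receptor, stood at 11.59, 11.59 and 11.79 in liver and 7.29, 6.89 and 6.70 in mammary gland, a difference of 4.70. Igf1, which it induces, was 2.84-fold higher in liver, with mammary values of 9.80, 10.17 and 10.15. The binding proteins Igfbp1, Igfbp4 and Igfbp2 differed by 7.68, 5.82 and 4.73, and Igfbp6 was at least 4.72-fold lower in liver. Egf, a growth factor of milk, stood at 3.99, 3.47 and 4.26 in liver and between 10.88 and 11.08 on the 3 mammary arrays, at least 109-fold lower in liver. The list median was 1.01 with ribosomal medians equal.

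Milk protein genes were the mirror image of the plasma proteins. All 13 tested were called lower in liver, beside 38.6% over all genes. Their median difference was -11.57, or -10.03 with means under the filter line set to it. Csn1s1 stood at 2.00, 1.93 and 1.88 in liver and at 15.12, 15.04 and 15.10 in mammary gland. Its difference was -13.15 ± 0.09 (SE, adjusted p = 5.5e-11), at least 1868-fold. Csn2 stood at 2.57, 2.46 and 2.46 against 14.27, 14.24 and 14.24, at least 1046-fold. Wap, whey acidic protein, stood at 3.28, 3.18 and 3.52 against 15.73, 15.76 and 15.73, at least 2935-fold lower in liver. The liver values of all 3 lay under the filter line, and the tissues did not overlap, as for 83.1% of all probe sets tested.

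The remaining caseins were as far apart. The lower bound of the fold was 1283-fold for Csn1s2a, 1390-fold for Csn1s2b, 1178-fold for Csn3, which coats the casein micelle, and 1043-fold for Lalba, the milk protein that turns galactosyltransferase into lactose synthase. Glycam1, a mucin of milk and lymph node vessels, was at least 2351-fold lower in liver. The smallest difference was that of Pigr, the receptor that carries IgA across epithelia, at -2.67, which liver also makes for bile. Lcn2, an iron-chelating defence protein, was next at -4.52.

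Genes of fat globule release were lower in liver without exception. All 9 tested were called lower, with a median of -5.53. Btn1a1, butyrophilin of the globule membrane, stood at 2.72, 2.20 and 2.14 in liver and at 13.54, 13.50 and 13.51 in mammary gland, at least 630-fold lower in liver. Cidea, a lipid droplet protein also known from brown fat, was at least 860-fold lower. Ucp1, the defining protein of brown fat, was near the line in both tissues, at 4.04 in liver and 4.64 in mammary gland. Cox8b, also on the brown adipocyte list, stood at 4.04 in liver and 7.07 in mammary gland (-3.03, adjusted p = 7.1e-06). All 5 tested genes of that list, Cidea included, were called lower in liver, beside 38.6% over all genes. The list median was -0.91, or 0.13 with ribosomal medians equal. Xdh, the oxidoreductase that binds butyrophilin, was 46.3-fold and Plin2, the coat of lipid droplets, 8.96-fold lower in liver, with liver values of 9.24, 9.16 and 9.05 for Plin2. Anxa1, a membrane-binding annexin, had the smallest difference, -0.52, which turned to 0.51 with ribosomal medians equal.

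Lpl, the lipase that frees fatty acids from lipoproteins, stood at 5.58, 5.39 and 5.09 in liver and at 12.66, 12.79 and 12.83 in mammary gland, 169-fold lower in liver (adjusted p = 1.98e-09). Cd36, a fatty acid receptor, was at least 7.09-fold lower.

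Of 9 tested genes of lactose synthesis and sugar supply 6 were called lower and 3 higher in liver, with a median of -0.89. The shares over all genes were 38.6% and 40.7%. Slc2a1, the basal glucose transporter, stood at 3.29, 3.61 and 3.38 in liver and 7.69, 7.85 and 7.64 in mammary gland, at least 11.4-fold lower. B4galt1, the galactosyltransferase that Lalba modifies, was 18.2-fold lower. The 3 higher genes encode enzymes that act on sugar phosphates or sugar nucleotides: Ugp2 at 2.39, Galt at 2.39 and Pgm1 at 1.60. The list median turned to 0.15 with ribosomal medians equal.

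Transporters of milk solutes were lower in liver. Of 9 tested genes of calcium, phosphate and metal transport 6 were called lower and 1 higher, beside 38.6% and 40.7% over all genes. Their median was -2.75. Slc34a2, a phosphate carrier, stood at 3.56, 3.74 and 3.40 in liver and at 12.84, 12.75 and 12.86 in mammary gland, at least 388-fold lower in liver. Slc39a8, a zinc importer, was 62.0-fold and Atp2b2, the pump that moves calcium into milk, at least 23.9-fold lower.

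Of 13 amino acid carriers 7 were called higher and 6 lower in liver, with a median of 0.69, beside 40.7% higher and 38.6% lower over all genes. Slc7a5, the carrier of large neutral amino acids, stood at 4.86, 5.18 and 4.38 in liver and 10.49, 10.52 and 10.91 in mammary gland, a difference of -5.83. Its partner chain Slc3a2 was 3.44-fold lower. Slc38a4, a carrier typical of hepatocytes, stood at 9.43, 9.55 and 9.41 against 1.90, 1.87 and 1.86, at least 37.95-fold higher in liver.

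Of 16 tested genes of mammary transcription and prolactin signalling 11 were called lower and 4 higher in liver, with a median of -0.92. The shares over all genes were 38.6% and 40.7%. Elf5, the factor that directs alveolar cells, stood at 3.36, 3.35 and 3.20 in liver and at 11.71, 11.80 and 11.72 in mammary gland, at least 184-fold lower in liver. Stat5a was 8.71-fold lower and Gata3, of luminal cells, 13.3-fold. Socs2, a STAT5-induced inhibitor, was 5.90-fold higher in liver, at 9.05, 9.36 and 9.55 against 5.83, 7.21 and 7.24. Cish, another, was not called (-0.12, from -0.68 to 0.45), but it was called without mammary replicate 1 (-0.42) and against mammary gland on 40% fat (-0.66), and turned to 0.92 with ribosomal medians equal. The list median turned to 0.11 with ribosomal medians equal.

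**Figure D2:**
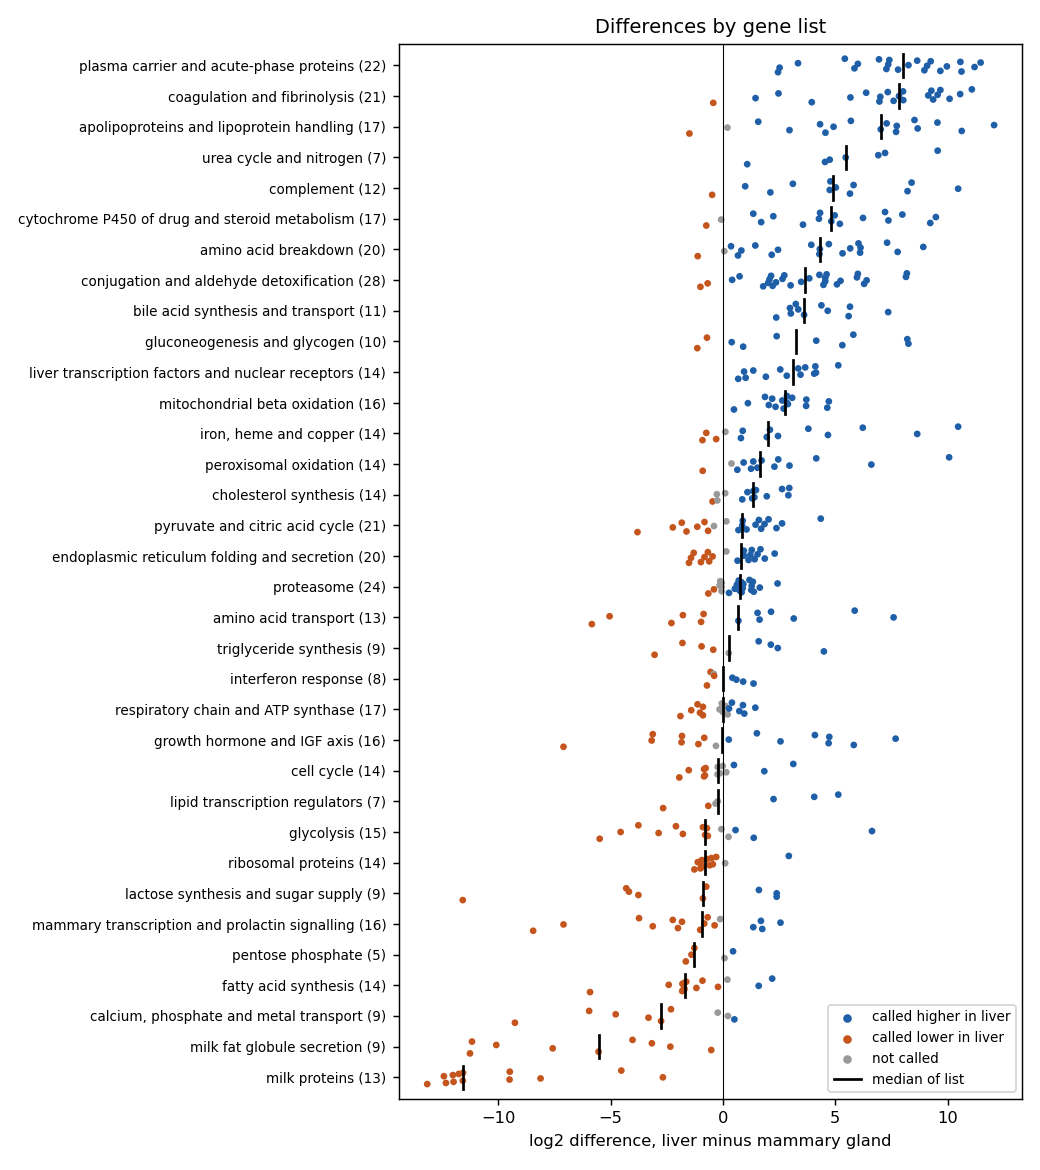
Differences of single genes, liver minus mammary gland in log2, for 34 gene lists ordered by their median (black bar), with the number of genes tested in brackets and calls in colour. Lists run from plasma proteins at 8.02 to milk proteins at -11.57, and the lists of shared cell machinery lie around 0.

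Fatty acid synthesis, which both organs perform, was lower in liver by modest amounts. Of 14 tested genes 11 were called lower and 2 higher, beside 38.6% and 40.7% over all genes. Their median was -1.67, or -0.63 with ribosomal medians equal. Fasn, fatty acid synthase, stood at 11.84, 11.82 and 11.79 in liver and at 13.50, 13.46 and 13.63 in mammary gland. Its difference was -1.71 ± 0.09 (SE, adjusted p = 9.48e-07), or 3.28-fold. Acly, which splits citrate to acetyl-CoA, was 3.40-fold lower, at 11.83, 11.92 and 11.66 against 13.60, 13.55 and 13.56. Slc25a1, the carrier that exports that citrate, was 5.30-fold and Me1, which supplies NADPH, 3.50-fold lower. The tissues did not overlap for any of these 4 genes, as for 83.1% of all probe sets tested.

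Scd1, the desaturase that makes oleate, differed least of the called members. It stood at 14.25, 14.37 and 14.36 in liver and at 14.56, 14.53 and 14.55 in mammary gland, a difference of -0.22 ± 0.09 (SE, adjusted p = 0.0459). The call was lost under quantile normalization, with equal array medians and without any array except liver replicate 3, with differences from -0.24 to -0.18 when an array was left out. Its other probe sets gave -0.89 and -3.19. Scd2, the other desaturase, stood at 5.90, 5.55 and 5.55 in liver and at 11.88, 11.40 and 11.46 in mammary gland, 60.3-fold lower in liver.

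Mid1ip1, a partner of Thrsp, was not called (0.20), but a second probe set gave 2.61 and was called (adjusted p = 1.34e-05). Members higher in liver were Elovl6, which lengthens palmitate, and Dbi, which binds acyl-CoA. Elovl6 stood at 10.83, 11.13 and 11.28 in liver and at 8.98, 9.20 and 8.48 in mammary gland, a difference of 2.19 ± 0.20 (SE, adjusted p = 2.54e-05). Thrsp, a lipogenic regulator, was 2.27-fold lower in liver, and its call was lost with ribosomal medians equal (-0.15).

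Of 7 tested regulators of lipid genes 3 were called higher and 2 lower in liver, beside 40.7% and 38.6% over all genes. Their median was -0.23, which turned to 0.80 with ribosomal medians equal. Srebf1, which switches on lipogenic genes, stood at 10.33, 10.33 and 10.15 in liver and at 10.37, 10.61 and 10.83 in mammary gland. The difference of -0.33, with a 95% interval from -0.64 to -0.01, was not called (adjusted p = 0.0531), though it was -0.93 and called under quantile normalization and -0.45 and called without mammary replicate 1. It turned to 0.71 with ribosomal medians equal. Pparg was at -0.65 and turned to 0.38 in that scaling. Of the kinases that relay insulin, Akt1 was 6.33-fold lower and Akt2 4.76-fold higher in liver.

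Cholesterol synthesis went the opposite way from fatty acid synthesis. Of 14 tested genes 10 were called higher and 1 lower in liver, beside 40.7% and 38.6% over all genes. Their median was 1.32. Dhcr7, which completes cholesterol, stood at 8.72, 8.99 and 8.86 in liver and at 6.27, 5.95 and 5.49 in mammary gland, 7.74-fold higher. Hmgcs1, which makes HMG-CoA in the cytosol, stood at 9.24, 9.29 and 9.73 against 7.13, 6.81 and 6.42, 6.20-fold higher. Sqle, squalene epoxidase, was not called (-0.27, from -0.55 to 0.02), nor were Mvd (-0.25) and Hsd17b7 (0.10). Mvk was the lower one at -0.46, and its second probe set gave 0.84.

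Of 9 triglyceride synthesis genes 4 were called higher and 4 lower in liver, with a median of 0.26. These shares lie near those of all genes, 40.7% and 38.6%, so only single members are described. Gpam, the mitochondrial enzyme that begins glycerolipid synthesis, stood at 10.09, 10.39 and 10.40 in liver and 7.93, 8.08 and 7.54 in mammary gland, 5.43-fold higher. Agpat1, of the next step, stood at 5.42, 5.49 and 5.43 against 8.62, 8.47 and 8.38, 8.25-fold lower in liver. Agpat3 was 4.37-fold and Lpin2 at least 17.4-fold higher, and Dgat1, of the last step, 3.49-fold lower.

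The same liver arrays were set beside mammary glands on 16% and 40% fat (3 arrays each, lactation day 10) and on chow at lactation day 9 (4 arrays), so these comparisons share the liver samples. Fasn differed by -1.71 against glands on 8% fat, -1.56 on 16%, -1.31 on 40% and -1.42 on chow. Scd2 differed by -5.91, -5.90, -5.11 and -4.94, and Acly by -1.77, -1.75, -1.55 and -1.55. Dhcr7 differed by 2.95, 3.08, 3.63 and 3.63. Each of these kept its direction against all 4 groups.

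The differences of Scd1, by its brightest probe set, and of Srebf1 changed sign with the mammary group. The other probe sets of Scd1, at -0.89 and -3.19 against glands on 8% fat, are not given for the other groups. Mean mammary Scd1 was 14.54 on 8% fat, 14.55 on 16%, 13.26 on 40% and 14.13 on chow, beside 14.33 in liver. Its difference was therefore -0.22, -0.22, 1.07 and 0.19, and it was called higher in liver against 40% fat (adjusted p = 2.06e-05), a comparison in which 78.0% of probe sets were called. Srebf1 differed by -0.33, 0.33, 0.39 and -0.31. It was not called against glands on 8% fat, so its sign there is not settled. Elovl6 was higher in liver against every group, by 2.19, 2.59, 3.09 and 3.31. Chow replicate 1 was the lowest of the chow arrays for Scd1 (13.46), Elovl6 (7.04) and Fasn (12.73).

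**Figure D3:**
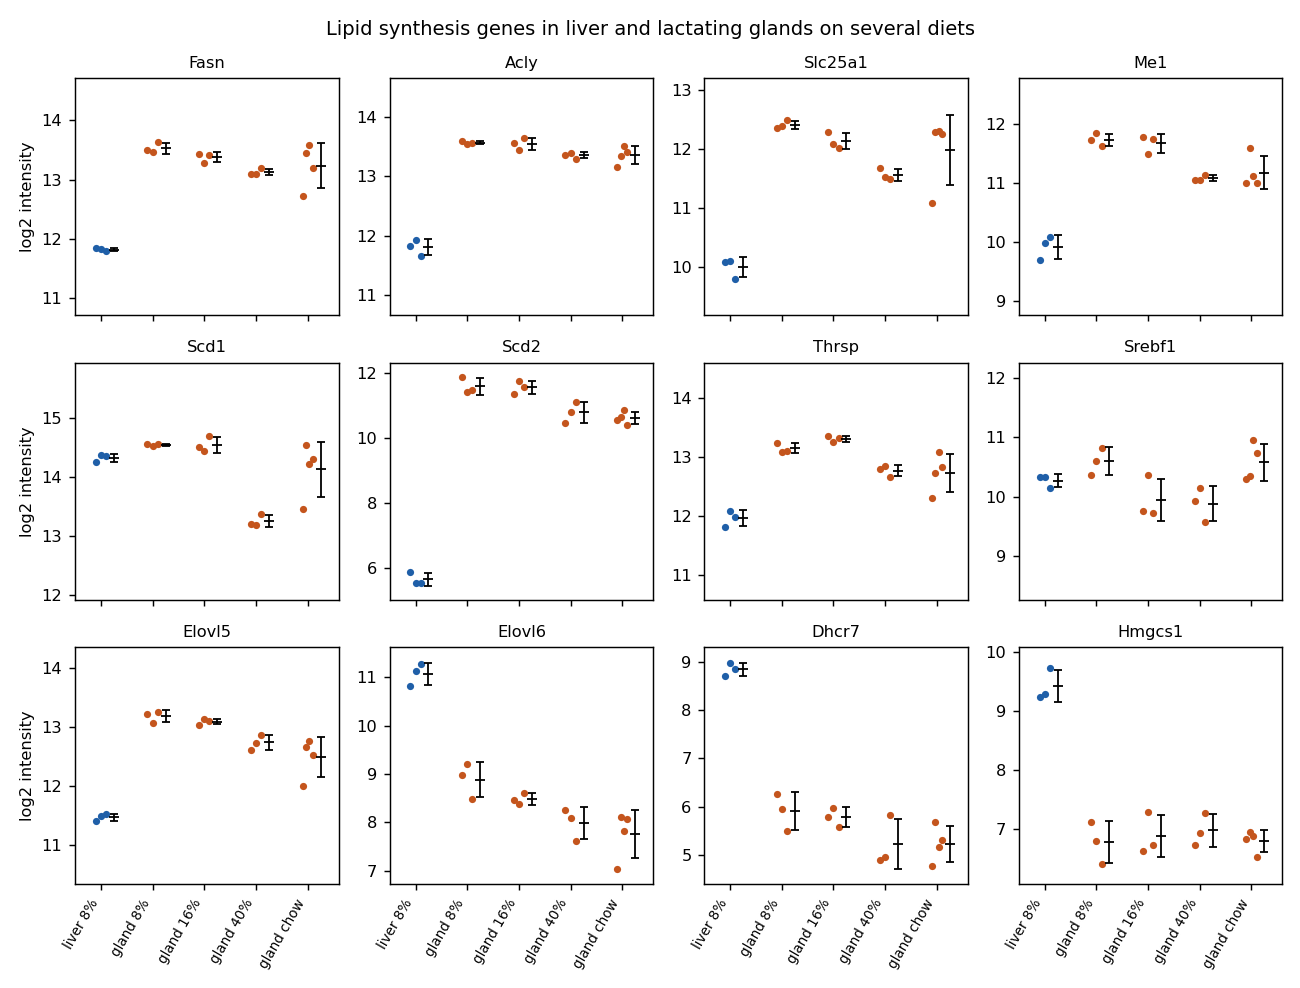
Log2 intensity of 12 lipid synthesis genes on each array of liver on 8% fat and of mammary gland on 8%, 16% and 40% fat at lactation day 10 and on chow at lactation day 9, with the mean and SD of each group beside the points. Axes differ between panels. Fasn and Scd2 lie lower in liver than in every mammary group and Dhcr7 and Elovl6 higher, while Scd1 in liver lies between mammary gland on 8% and on 40% fat.

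Set against all 29 mammary arrays of the series, pregnancy included, 1431 probe sets called higher had all 3 liver arrays above every mammary array. Of those called lower, 1217 had all 3 liver arrays below every mammary array. Of the 1631 probe sets at least 2-fold higher this held for 1244, and of the 1085 at least 2-fold lower for 756.

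Several enzyme and carrier families changed members between the tissues. Among pyruvate kinases, Pklr, the form of liver and red cells, stood at 9.36, 9.41 and 9.48 in liver and 2.81, 2.76 and 2.78 in mammary gland, at least 36.7-fold higher. Pkm, the form of most other tissues, stood at 5.48, 5.53 and 4.96 against 10.09, 9.97 and 9.58, 23.4-fold lower in liver. Among glucose transporters, Slc2a2, which lets glucose leave hepatocytes, stood at 11.15, 11.11 and 11.26 against 2.99, 2.96 and 2.96, at least 124-fold higher. Slc2a1 was the lower one, as given above.

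Slc2a4, the insulin-responsive transporter of fat and muscle, was at 7.21, 7.36 and 7.27 in liver and 6.66, 6.44 and 4.81 in mammary gland, a difference of 1.31 (adjusted p = 0.0239). Mammary replicate 3, the lowest for Adipoq and Retn, was again the lowest. Without it the difference was 0.73, and the call was lost without any single liver array.

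Among fatty acid carriers, Fabp1, given above, Fabp2, Fabp5 and Fabp7 were called higher in liver. Fabp2 was at least 8.98-fold, Fabp5 7.44-fold and Fabp7 at least 1.60-fold higher. Fabp3, the heart and mammary form, stood at 4.46, 4.32 and 4.44 in liver and at 14.29, 14.56 and 14.60 in mammary gland, 1081-fold lower in liver (adjusted p = 1.43e-10). Fabp4, of adipocytes, was at least 2.46-fold lower. Of the transport proteins at the cell surface, Slc27a2 was at least 95.7-fold and Slc27a5 48.1-fold higher in liver, and Slc27a1 7.04-fold lower. Of the elongases, Elovl2, which acts on polyunsaturated chains, was at least 32.1-fold higher, while Elovl5, Elovl1 and Elovl3 differed by -1.71, -1.63 and -0.91, the last of which turned to 0.13 with ribosomal medians equal.

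**Figure D4:**
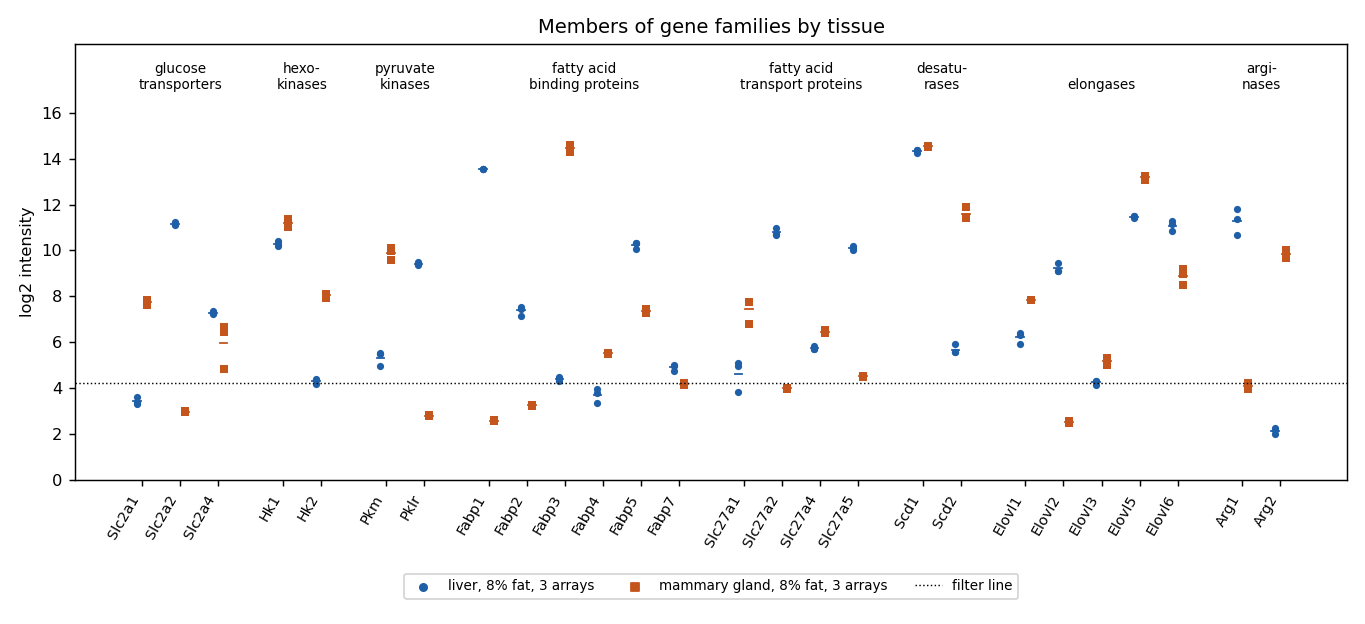
Log2 intensity of members of 8 gene families on each of the 3 liver arrays (circles) and 3 mammary arrays (squares), with group means as short bars and the filter line of 4.22 dotted. Pklr, Slc2a2, Fabp1 and Arg1 stand higher in liver, and Pkm, Slc2a1, Fabp3, Scd2 and Arg2 higher in mammary gland. Levels of different genes are not comparable with each other.

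Of 15 tested glycolysis genes 10 were called lower and 3 higher, beside 38.6% and 40.7% over all genes. Their median was -0.79, which turned to 0.24 with ribosomal medians equal. Aldoc, an aldolase, stood at 5.64, 5.93 and 5.46 in liver and at 11.23, 11.19 and 11.03 in mammary gland, 44.5-fold lower in liver. Hk2, a hexokinase, was 13.5-fold and Pfkl, the liver-type phosphofructokinase by name, 7.24-fold lower in liver. Of 5 pentose phosphate genes, which supply NADPH, 3 were called lower and 1 higher, with a median of -1.27.

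Of 21 tested genes of pyruvate entry and the citric acid cycle 12 were called higher and 7 lower in liver, with a median of 0.86. Over all genes 40.7% were called higher and 38.6% lower. Cs, citrate synthase, stood at 7.07, 7.19 and 7.30 in liver and at 10.89, 10.89 and 11.17 in mammary gland, 13.9-fold lower in liver. The pyruvate dehydrogenase subunits Dlat, Pdha1 and Pdhb were 4.70-fold, 3.55-fold and 3.07-fold lower. Idh1, which makes NADPH in the cytosol, stood at 9.43, 9.55 and 9.56 against 5.34, 5.02 and 5.14, 20.3-fold higher in liver, and Sdha, of succinate dehydrogenase, was 6.19-fold higher.

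Shared cell machinery is read beside 40.7% higher and 38.6% lower over all genes. Of 17 respiratory chain genes 6 were called higher and 6 lower, with a median of -0.01, and of 24 proteasome genes 17 higher and 2 lower, with a median of 0.76. Of 14 ribosomal protein genes 12 were called lower and 1 higher, with a median of -0.81, or 0.22 after their own medians were set equal. Of 20 genes for folding and secretion in the endoplasmic reticulum 11 were called higher and 8 lower, with a median of 0.79. Pdia3, a disulfide isomerase, was 4.91-fold higher and Xbp1, which drives secretory capacity, 2.86-fold lower in liver.

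The tested cell division and interferon genes gave no common direction. Of 26 measured cell cycle genes 14 were tested, and the others, such as Top2a and Mcm2, were under the filter line in both tissues. Of the 14 tested, 3 were called higher and 6 lower, beside 40.7% and 38.6% over all genes. Their median was -0.23. Mki67, a proliferation marker, was 2.86-fold lower and Tk1, a thymidine kinase, 8.73-fold higher in liver. Of 15 measured interferon response genes 8 were tested, and the others, such as Ifit1 and Isg15, were under the line in both tissues. Of the 8 tested, 4 were called higher and 3 lower, with a median of 0.02. Irgm1, an interferon-induced GTPase, was 2.58-fold higher and Irf9, a partner of the STAT factors, at -0.71, which turned to 0.32 with ribosomal medians equal.

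Probe choice matters for some genes. Of 528 genes with several called probe sets, 146 had probe sets called in opposite directions. Choosing the brightest probe set in either tissue in place of the brightest over all 32 arrays, 29 of them mammary, exchanged the probe set of 113 genes and turned the call of 21. Serpinf2, Lcat and Gstm3 were among these, and Asgr1, a hepatocyte receptor, went from -0.71 to 8.66.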

How the data were processed

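RNA of each sample was hybridised to a single-colour Affymetrix expression array. The authors deposited 1 table of linear intensity values for 12488 probe sets on 32 arrays, made with GCRMA per the submitters' processing notes. Background correction and probe summaries are part of those values and were not changed. GCRMA draws dim probe sets towards a common low value, so spread near background is understated. Depth has no meaning for arrays.

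From the deposited intensity, log2 values were taken after a floor of 1, which 208 values lay below. The 66 control probe sets were left out. The filter kept 6897 probe sets with the higher group mean at or above the median of all values. Tissues were compared with limma 3.58.1 in R 4.3.3 (lmFit and eBayes, 3 against 3 arrays, Benjamini-Hochberg adjustment). Tables were summarised in Python 3.11.15. Nothing in the labels says that samples of a tissue came from separate dams beyond their being individual samples, so p-values measure the spread between these samples.

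Of 12422 probe sets kept, 10833 had 1 gene symbol in the platform annotation, 396 several and 1193 none, and 10817 of the first kind matched the RefSeq table (GRCm38.p6). The 8251 genes were each given by the probe set brightest on average across the 32 arrays. Probe sets that can bind several transcripts by design remain uncertain.

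Members and lists were chosen with earlier results of these data known. Genes named were the 12 with the largest difference in each direction, up to 4 called members per direction and 2 uncalled members of each list, isoform families with calls in both directions, and a short fixed set. Other list members beside the counts, such as the smallest differences, were chosen after their values were seen. On data simulated from these arrays with 200 changed probe sets of 6897 in each of 5 runs, the test recovered 83.6% of 2-fold and 98.4% of 4-fold changes, with 3.79% and 4.90% false calls. In the data 80.0% of probe sets were called, far more than were changed there, so these rates do not carry over to this comparison.

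Alternatives were the filter, floor, scaling between arrays, variance model, a 2-fold test (treat), a replicate block, a fit of all 32 arrays, other mammary groups, each array left out, and the choice of probe set. The labels do not say that replicate numbers mark animals, so the numbers were not taken as pairs. Deviations of same-numbered liver and mammary arrays correlated at 0.0216, -0.0077 and 0.0106, and those of differently numbered arrays at -0.0502 to 0.0430. With 3 arrays of each tissue these values cannot show whether samples share a dam.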

Additional observations from a re-analysis of the deposited data

Results flagged for a closer look

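Slc25a1, the mitochondrial citrate carrier, had 1 array far from the others in the chow mammary glands at lactation day 9. That array stood at 11.08 log2, while the median of the 4 arrays was 12.26 and the highest 12.30. The gap was 0.964 of the whole range, above the limit of Dixon's test for 4 samples. It was found among 13 lipid genes checked in this way, and chance flags about 1 in 20 such groups. The same array, chow replicate 1, was also the lowest of the 4 for Fasn (12.73), Elovl5 (12.00), Scd1 (13.46) and Elovl6 (7.04). It was not the lowest for Scd2 and Hmgcs1. The genes checked are therefore not independent, and the cause was not tested.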

How the results depend on the processing

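Of 169 genes named, 136 kept their direction and their call in each alternative in which they were tested. The treat test was run for counts only, and the 75th percentile filter tested 156 of these genes and the mean of probe sets 167. The number of probe sets called, 5518, was 10292 with no filter, 3368 with the filter at the 75th percentile, and 1986 when limma's treat asked for more than 2-fold, which test more, fewer and larger differences by construction. Probe sets called lower numbered 7345, 1381 and 713 in these settings, and those called higher 1273 under treat. Equal ribosomal medians gave 5664 higher and 697 lower, with 3702 and 418 at least 2-fold so. Leaving out each array gave 5226 to 5398 calls, 2584 to 2728 higher and 2618 to 2670 lower, with 1626 to 1676 and 1051 to 1103 at least 2-fold so.

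The replicate block gave 5416 calls, and of the genes named only Scd1 lost its call (adjusted p = 0.0877). Differences that turned sign with equal ribosomal medians were Sqle 0.77, Slc11a2 0.12, Serpinf2 0.60, Scd1 0.82, Srebf1 0.71, Pparg 0.38, Anxa1 0.51, Mvk 0.57, Mvd 0.78, Irf9 0.32, Gstm5 0.04, Gstm3 0.36, Fth1 0.30, Elovl3 0.13, Cyp2d9 0.29, Cish 0.92, Cfb 0.56, Asgr1 0.33, Pck2 0.33 and Ucp1 0.44. Under quantile normalization Ivd turned to -0.45, Krt18 to -0.01, Krt8 to -0.12 and Scarb1 to -0.38. Against mammary gland on 40% fat Scd1 was at 1.07 and Srebf1 at 0.39, and against chow glands Scd1 was at 0.19, Mvd at 0.53 and Sqle at 0.55. The mean of a gene's probe sets gave Serpinf2 4.08, Asgr1 3.98, Lcat 3.79, Krt18 -0.12, Gstm3 1.58 and Mvk 0.19. The brightest probe set in either tissue, an alternative chosen after seeing the data, gave Gstm3 3.83, Serpinf2 8.59, Lcat 9.07 and Asgr1 8.66. Equal ribosomal medians raise every difference by 1 common amount, so any negative difference smaller than that amount turns by construction. The cause of the other turns was not tested. Signal near background limits the 703 probe sets called higher with the mammary mean under the filter line and the 955 called lower with the liver mean under it, whose folds are only bounds.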
